A study of Mus musculus with 6 samples.

Results

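Mitosis genes were followed in bulk RNA sequencing of mouse liver, as a list of 53 genes chosen for their role in chromosome segregation and cell division. All 53 were found in the deposited table of 56350 gene IDs by their GENCODE M21 symbols, with Sgol1 listed there as Sgo1. The list was drawn up by gene function and not by the values of these libraries, but with earlier results of the same data known. The study set 3 liver samples labelled as a hepatocyte-specific knockout of Atg14 (HepKO) against 3 labelled wild-type (WT), to compare liver RNA with and without Atg14, an autophagy gene whose protein joins the class III PI3-kinase when autophagosomes form. Which Cre line drove the deletion, and the age, sex, diet and any pooling of the mice, is not given in the sources used here. Since no label ties each sample to its own mouse, the p-values measure only how these samples spread, which may be technical. Bulk liver keeps the RNA of cells other than hepatocytes, in which Atg14 was not targeted.

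Cells divide in M phase after copying their DNA in S phase. The kinase CDK1, bound by cyclins A and B, starts the process; condensins compact the chromosomes, kinetochores tie them to spindle microtubules, and the spindle checkpoint holds back the anaphase-promoting complex (APC/C) until each chromosome is attached. The central spindle and a contractile ring then divide the cell. Most adult hepatocytes are out of the cell cycle and can re-enter it after injury or loss of tissue, and many become polyploid when cytokinesis fails. The mRNAs of most of these genes rise together in late S, G2 and M phase under the MuvB complex with B-MYB and FOXM1.

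The libraries held 33145684 to 48951937 counts in HepKO and 35720011 to 41754560 in WT. Values below are counts, or CPM (counts scaled to a common library size), with library totals adjusted by the trimmed mean of M-values (TMM). Atg14 had 5.66, 8.45 and 7.95 CPM in HepKO replicates 1 to 3, against 20.9, 22.2 and 21.05 CPM in WT (log2 fold change -1.54 ± 0.16, FDR 4.69e-04). All 3 HepKO libraries were below all WT libraries, although the count covers every cell type of the tissue. Fold changes are log2 HepKO over WT ± SE from the quasi-likelihood test of edgeR, and FDR is the Benjamini-Hochberg adjusted p over all 16051 genes tested. Genes were called at an FDR under 0.05.

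Nearly every measured mitosis gene rose in HepKO liver. Of the 53 members 48 rose, 0 fell, 3 did not pass the test, and 2 could not be tested for lack of counts. Over all tested genes 19.5% were called higher and 18.7% lower. The 51 tested members had a median log2 fold change of 3.44, beside 0.01 over all tested genes, and 43 of them had a log2 fold change of at least 2. All HepKO libraries lay above all WT libraries for 49 members, a pattern shown by 27.1% of all tested genes, with 26.4% the other way. In bulk tissue, a higher share of dividing cells and more of these mRNAs per cell cannot be told apart.

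Much of the list was close to the detection limit in WT. Only 22 members reached the filter's cutoff of 0.254 CPM in all 3 WT libraries. For this cutoff CPM was taken from library totals without TMM, unlike the CPM printed for each gene. Of those, 19 rose and 3 were not called, with a median log2 fold change of 2.38. The other 29 tested members passed the filter through their HepKO level, so that they differed between the groups by the way they were kept, and their count is not support of its own. With no filter all 53 could be fitted, of which 49 were called higher (10.7% of all genes) and 0 lower, with a median of 3.43. With library totals in place of TMM, 50 members were called higher (46.4% of all genes, with 5.84% lower) and the median of all tested genes was 0.52 in place of 0.01. Without HepKO replicate 1, the library with the highest values, 45 members were called higher (16.3% of all genes), and the median was 2.91. The counts were 48 with DESeq2 (17.4%) and with relative log expression factors (19.8%), 45 of 47 with a filter of 1 CPM (23.3%), and 46 without WT replicate 2 (16.7%).

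**Figure D1:**
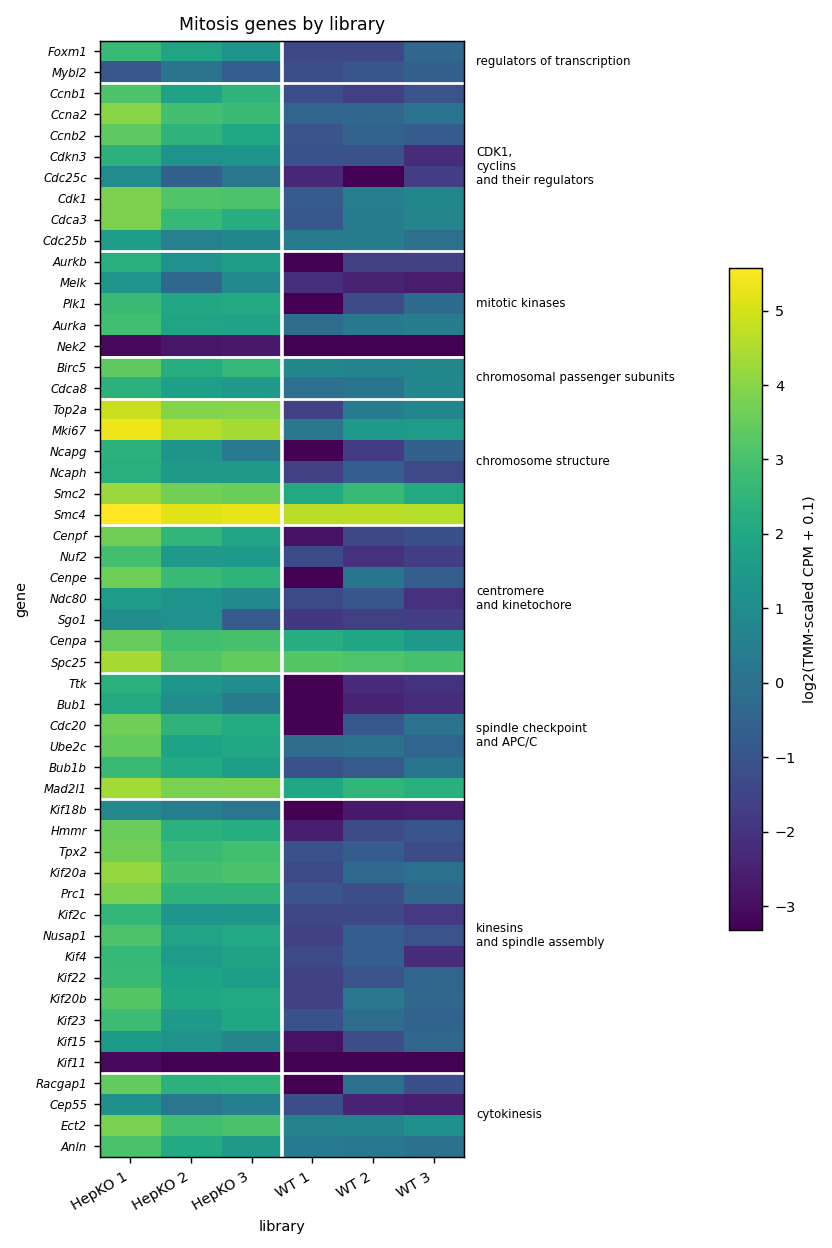
Level of each of the 53 mitosis genes (rows, grouped by role) in each library (columns), as log2 of TMM-scaled CPM plus 0.1. HepKO columns are brighter than WT columns for 49 genes, HepKO 1 is the brightest column for most rows, and Kif11 and Nek2 are dark in all 6 libraries.

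The promoters of these genes share sequence elements that the list was not chosen on. Mitotic promoters are known for the cell cycle genes homology region (CHR, TTTGAA), which the MuvB complex binds, and for the CCAAT box bound by NF-Y. Promoter windows of 300 bases, 250 before to 50 after a transcription start, were at hand from RefSeq (GRCm38.p6) for 46 members. Searched on both strands, TTTGAA was found in 33 of these 46 (71.7%), against 20.2% of 27025 genes with a window. Within 50 bases of the start it was found in 30 members (65.2%), against 5.72% of all genes. CCAAT was found in 33 members (71.7%) and 41.1% of all genes, and both motifs in 27 members (58.7%) and 7.97% of all genes. The nearest lists were close to the members in part: other spindle genes held CCAAT in 70.6%, TTTGAA in 58.8% and both in 58.8% of 17 promoters. Other kinetochore genes held CCAAT in 66.7% and TTTGAA in 41.7% of 24, and other condensin subunits CCAAT in 25% and TTTGAA in 75% of 4. S-phase genes held CCAAT in 70.6% but TTTGAA in 17.6% of 17. The list of entry brakes and CDK1 partners held CCAAT in 87.5% and TTTGAA in 25% of 8. No difference between lists was tested. Matches of the 2 motifs can share at most 1 letter, and a match is a description and not a bound site.

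The stretches below run from 120 bases before the start to 20 after it, 5′ to 3′ on the gene's strand, with the letters of both motifs and of their reverse complements in capitals. Of the members with a window, 6 that hold a CHR match near the start are shown, with roles from entry into mitosis to cytokinesis, and Mybl2 is shown as a member that was not called and has no CHR match in its window. They were picked after the matches were seen, and for Prc1 another of its listed starts is shown.
Cdk1, chr10:69352893-69353032, minus strand: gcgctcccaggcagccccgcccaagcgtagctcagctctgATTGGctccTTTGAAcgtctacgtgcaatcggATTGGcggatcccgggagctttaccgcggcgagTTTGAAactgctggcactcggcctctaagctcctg
Cdc20, chr4:118437324-118437463, minus strand: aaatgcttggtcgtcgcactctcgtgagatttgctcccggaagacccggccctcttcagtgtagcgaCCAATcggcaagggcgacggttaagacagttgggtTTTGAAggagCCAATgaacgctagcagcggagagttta
Ube2c, chr2:164769809-164769948, plus strand: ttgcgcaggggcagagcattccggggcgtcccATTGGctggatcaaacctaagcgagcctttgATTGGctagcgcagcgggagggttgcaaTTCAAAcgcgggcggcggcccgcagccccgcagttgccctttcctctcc
Ncapg, chr5:45669805-45669944, plus strand: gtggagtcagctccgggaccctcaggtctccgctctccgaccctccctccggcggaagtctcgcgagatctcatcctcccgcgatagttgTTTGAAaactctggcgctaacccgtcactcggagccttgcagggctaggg
Prc1, chr7:80294356-80294495, plus strand: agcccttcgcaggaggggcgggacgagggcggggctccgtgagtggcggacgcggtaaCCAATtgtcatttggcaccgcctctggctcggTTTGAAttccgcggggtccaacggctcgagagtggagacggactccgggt
Kif23, chr9:61946780-61946919, minus strand: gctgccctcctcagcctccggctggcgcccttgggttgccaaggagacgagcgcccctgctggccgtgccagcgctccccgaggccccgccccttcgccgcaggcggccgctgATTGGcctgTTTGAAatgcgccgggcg
Mybl2, chr2:163054515-163054654, plus strand: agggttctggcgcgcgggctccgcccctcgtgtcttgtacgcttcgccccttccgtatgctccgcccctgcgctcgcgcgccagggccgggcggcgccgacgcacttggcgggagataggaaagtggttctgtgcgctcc

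In these stretches the CHR nearest the start begins 15 bases before it in Cdk1 (position -15) and at -18 in Cdc20, -29 in Ube2c and -30 in Ncapg and Prc1, and at position 3 after the start in Kif23. In Cdk1, Cdc20, Ube2c, Prc1 and Kif23 a CCAAT box lies close by, and Ncapg has none in the stretch shown. Members rose with and without the CHR letters: 31 of 32 tested members with a match rose (median log2 fold change 3.30), as did 10 of 12 without one (median 3.51). Over all tested genes 19.5% were called higher. Both counts and medians include members kept by the filter through their HepKO level, such as Ttk with a match and Bub1, Ccnb1 and Melk without. They are therefore not support of their own. Members without a match in the window included Bub1, Ccnb1 and Melk, which rose, and Cdc25b and Mybl2, which were not called.

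**Figure D2:**
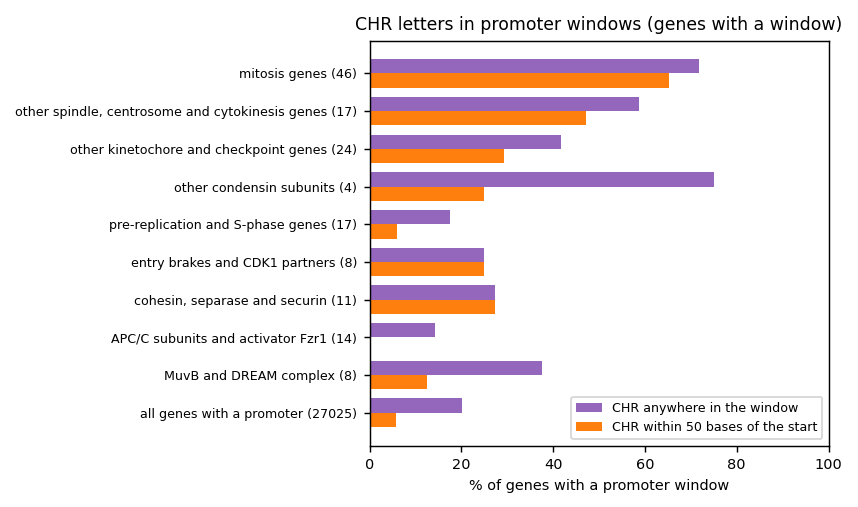
Share of genes (x axis, %) whose promoter window holds the CHR letters anywhere (purple) or within 50 bases of the start (orange), for the mitosis genes and the other gene lists (y axis, number of genes with a window in brackets). The mitosis genes stand at 71.7% and 65.2%, and all genes at 20.2% and 5.72%.

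Of the 2 transcription regulators, Foxm1, kept by the filter through its HepKO level, rose and Mybl2 was not called. Foxm1, the forkhead factor that drives G2 and M genes, had 6.23, 3.61 and 2.34 CPM in HepKO replicates 1 to 3, against 0.270, 0.279 and 0.673 CPM in WT. The groups did not overlap, and the log2 fold change was 3.31 ± 0.52 (FDR 0.00220), or 3.89 without WT replicate 3. Mybl2, which encodes B-MYB, had 0.430, 0.981 and 0.534 CPM in HepKO and 0.338, 0.418 and 0.556 CPM in WT. Its groups overlapped (log2 fold change 0.56 ± 0.51, FDR 0.426).

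Among CDK1, its cyclins and their regulators, 7 of 8 rose, with Ccnb1, Cdc25c and Cdkn3 kept by the filter through their HepKO level. Cdk1 itself had 14.0, 8.81 and 8.23 CPM in HepKO, against 0.507, 1.31 and 1.61 CPM in WT (log2 fold change 3.17 ± 0.41, FDR 9.92e-04). Ccnb1, cyclin B1, had 8.52, 3.41 and 5.46 CPM in HepKO, against 0.338, 0.223 and 0.381 CPM in WT (log2 fold change 4.20 ± 0.44, FDR 4.40e-04). For both genes the lowest HepKO library was several-fold above the highest WT library. Ccna2 and Ccnb2, cyclins A2 and B2, had log2 fold changes of 3.73 and 3.68. The phosphatase gene Cdkn3 (3.51) and Cdca3, which promotes entry into mitosis (2.91, or 2.27 without HepKO replicate 1), rose as well. The 2 members of the CDC25 family, the phosphatases that switch CDK1 on, gave different results. Cdc25c rose (log2 fold change 3.48 ± 0.90, FDR 0.0178) from few counts, 3, 0 and 7 in the WT libraries, and its call ended without HepKO replicate 1 (FDR 0.0618) and without WT replicate 1 (FDR 0.0517). Its value was 4.55 without WT replicate 3. Cdc25b had 3.01, 1.36 and 1.70 CPM in HepKO and 1.22, 1.23 and 0.878 CPM in WT. All 3 HepKO libraries were above WT, but the difference did not pass the test (log2 fold change 0.88 ± 0.39, FDR 0.116; FDR 0.0199 with library totals).

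All 4 tested mitotic kinases rose, but Aurkb, Plk1 and Melk were kept by the filter through their HepKO level. Plk1, which acts from mitotic entry to cytokinesis, had 6.61, 3.88 and 4.19 CPM in HepKO, and 0, 0.306 and 0.761 CPM in WT, where replicate 1 had 0 counts. Its log2 fold change was 3.74 ± 0.79 (FDR 0.00762), 4.90 without WT replicate 3 and 4.81 with limma-voom. Melk, a kinase of proliferating cells, had 2.41, 0.713 and 1.75 CPM in HepKO, against 0.135, 0.0836 and 0.0585 CPM in WT, with no overlap (log2 fold change 4.12 ± 0.65, FDR 0.00222). Aurkb, the kinase of the chromosomal passenger complex, had a log2 fold change of 4.37, and Aurka, which acts at centrosomes, had 2.17. Nek2, which parts the centrosomes, had 1, 2 and 2 counts in HepKO and 0 in each WT library and was not measured. The other passenger subunits rose too. Birc5, survivin, had 10.4, 4.55 and 5.996 CPM in HepKO, against 1.69, 1.53 and 1.61 CPM in WT (log2 fold change 2.11 ± 0.33, FDR 0.00208). Cdca8, borealin, had 5.18, 3.14 and 2.67 CPM in HepKO, against 0.845, 1.003 and 1.64 CPM in WT (log2 fold change 1.65 ± 0.38, FDR 0.0112). The groups overlapped for neither gene.

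All 6 chromosome structure genes rose, over a wide range, with Top2a, Ncapg and Ncaph kept by the filter through their HepKO level. Mki67, on chromosome 7 (135689784 to 135716361, GRCm38), encodes the Ki-67 protein that coats mitotic chromosomes and is the usual marker of cycling cells. It had 40.4, 24.5 and 20.8 CPM in HepKO replicates 1 to 3, against 1.08, 2.65 and 2.93 CPM in WT. Its lowest HepKO library was above every WT library, and the log2 fold change was 3.67 ± 0.39 (FDR 4.68e-04). Top2a, the topoisomerase that untangles sister chromatids, had 29.0, 15.1 and 15.5 CPM in HepKO, against 0.237, 1.28 and 1.61 CPM in WT (log2 fold change 4.22 ± 0.54, FDR 9.58e-04). Ncapg, a subunit of condensin I, had 5.11, 2.36 and 1.19 CPM in HepKO and 0, 0.195 and 0.585 CPM in WT (log2 fold change 3.44 ± 0.93, FDR 0.0218). The groups did not overlap, yet the call of Ncapg ended without HepKO replicate 1 (2.73, FDR 0.0743), without WT replicate 2 (FDR 0.0672) and with limma-voom (4.27, FDR 0.0520), and the value was 4.78 without WT replicate 3. Ncaph, of the same complex, had a log2 fold change of 3.23. The core condensin subunits, which also serve cells outside mitosis, moved less: Smc2 had 1.57 and Smc4 0.72. Smc4 was already at 25.4, 24.96 and 24.0 CPM in WT, with 47.7, 36.3 and 38.2 CPM in HepKO (FDR 0.00296).

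Of 7 centromere and kinetochore genes 6 rose, all but Cenpa kept by the filter through their HepKO level. Nuf2, a subunit of the NDC80 complex that holds microtubules, had 7.59, 2.67 and 2.74 CPM in HepKO, against 0.304, 0.139 and 0.205 CPM in WT (log2 fold change 4.33 ± 0.58, FDR 0.00109). Without HepKO replicate 1 it was 3.64. Ndc80, from the same complex, had 2.99. Spc25, another subunit, behaved otherwise. It had 21.1, 8.96 and 10.8 CPM in HepKO and 9.19, 8.55 and 7.85 CPM in WT, so that HepKO replicate 2 fell within the WT range. It was not called (log2 fold change 0.68 ± 0.30, FDR 0.115), although it was with no filter (FDR 0.0225), with library totals (FDR 0.0127) and without HepKO replicate 2 (FDR 0.0496). Cenpf and the motor Cenpe, large proteins of the outer kinetochore, had log2 fold changes of 4.97 and 3.92, with Cenpf at 4.33 without HepKO replicate 1 and Cenpe at 4.86 without WT replicate 2 and 5.07 with limma-voom. The cohesin protector Sgo1 rose by 2.93 on the log2 scale, with its call lost under limma-voom (FDR 0.0547), and the centromeric histone Cenpa by 1.26.

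All 6 genes of the spindle checkpoint and its target rose, and they included the steepest changes of the list. Bub1, Ttk and Cdc20 among them were kept by the filter through their HepKO level. Ttk, the kinase MPS1, had 5.05, 2.43 and 1.96 CPM in HepKO, against 0, 0.111 and 0.146 CPM in WT (log2 fold change 5.10 ± 0.74, FDR 0.00154). Bub1, a checkpoint kinase, had a log2 fold change of 5.09, with 0, 3 and 4 counts in WT, and 4.47 without HepKO replicate 1 or 5.69 without WT replicate 3. Mad2l1, which encodes the inhibitor MAD2, had 19.99, 13.6 and 14.2 CPM in HepKO, against 3.82, 5.77 and 4.92 CPM in WT (log2 fold change 1.72 ± 0.22, FDR 8.75e-04). Its groups lay apart at levels well above the filter. Cdc20, the APC/C activator that MAD2 holds back, had 12.2, 5.44 and 4.40 CPM in HepKO, and 0, 0.446 and 0.937 CPM in WT. Its log2 fold change was 3.96 ± 0.84 (FDR 0.00775), 3.37 without HepKO replicate 1, 4.95 without WT replicate 3 and 5.05 with limma-voom. The checkpoint gene Bub1b had 2.87 and Ube2c, the ubiquitin-conjugating enzyme of the APC/C, 2.93, or 2.20 for Ube2c without HepKO replicate 1.

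The kinesins and spindle assembly factors rose in all 12 tested cases, with log2 fold changes of 2.65 to 4.99. All but Kif23, Tpx2 and Prc1 were kept by the filter through their HepKO level, so that their count is not support of its own. Tpx2, which activates Aurora A on the spindle, had the smallest p of the whole list. It had 12.4, 6.38 and 7.24 CPM in HepKO, against 0.372, 0.501 and 0.322 CPM in WT (log2 fold change 4.43 ± 0.36, FDR 1.80e-04). Kif15, a spindle kinesin, had the largest p of its group, with 2.79, 2.30 and 1.58 CPM in HepKO and 0.0338, 0.334 and 0.673 CPM in WT (log2 fold change 2.65 ± 0.71, FDR 0.0208). Its groups did not overlap, but the call ended without HepKO replicate 1 (FDR 0.0556), HepKO replicate 2 (FDR 0.0539) or WT replicate 2 (FDR 0.0607), and the value was 3.53 without WT replicate 3. The midzone organiser Prc1 had 4.13, or 3.50 without HepKO replicate 1, and the central spindle motors Kif20a and Kif23 had 4.15 and 2.86. The chromosome arm motor Kif4 had 3.68, or 4.33 without WT replicate 2, and the microtubule depolymerase Kif2c had 3.87. The spindle factors Hmmr and Nusap1 had 4.70 and 3.80, and the motors Kif18b, Kif22 and Kif20b 4.99, 3.35 and 3.09. Kif11, the motor that builds a bipolar spindle, had 1 count in HepKO replicate 1 and 0 in the other 5 libraries. Like Nek2 it was not measured, and a count near 0 here does not show that its mRNA was lacking.

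All 4 cytokinesis genes rose, with Cep55 and Racgap1 kept by the filter through their HepKO level. Anln, the anillin of the contractile ring, had 8.02, 4.28 and 2.72 CPM in HepKO, against 1.15, 1.11 and 0.907 CPM in WT (log2 fold change 2.25 ± 0.42, FDR 0.00451). Ect2, the exchange factor that activates RhoA at the division site, had 13.8, 7.36 and 8.10 CPM in HepKO, against 1.49, 1.53 and 2.11 CPM in WT (log2 fold change 2.51 ± 0.30, FDR 7.46e-04). Both were above WT in every HepKO library. Cep55, which acts in the final cut, had 2.12, 1.03 and 1.35 CPM in HepKO, against 0.338, 0.0836 and 0.0585 CPM in WT (log2 fold change 3.25 ± 0.69, FDR 0.00779, or 4.34 without WT replicate 1). Racgap1, the partner of Kif23 in the central spindle, had a log2 fold change of 4.09, with WT counts of 0, 31 and 12 and values of 5.27 without WT replicate 2 and 5.19 with limma-voom.

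**Figure D3:**
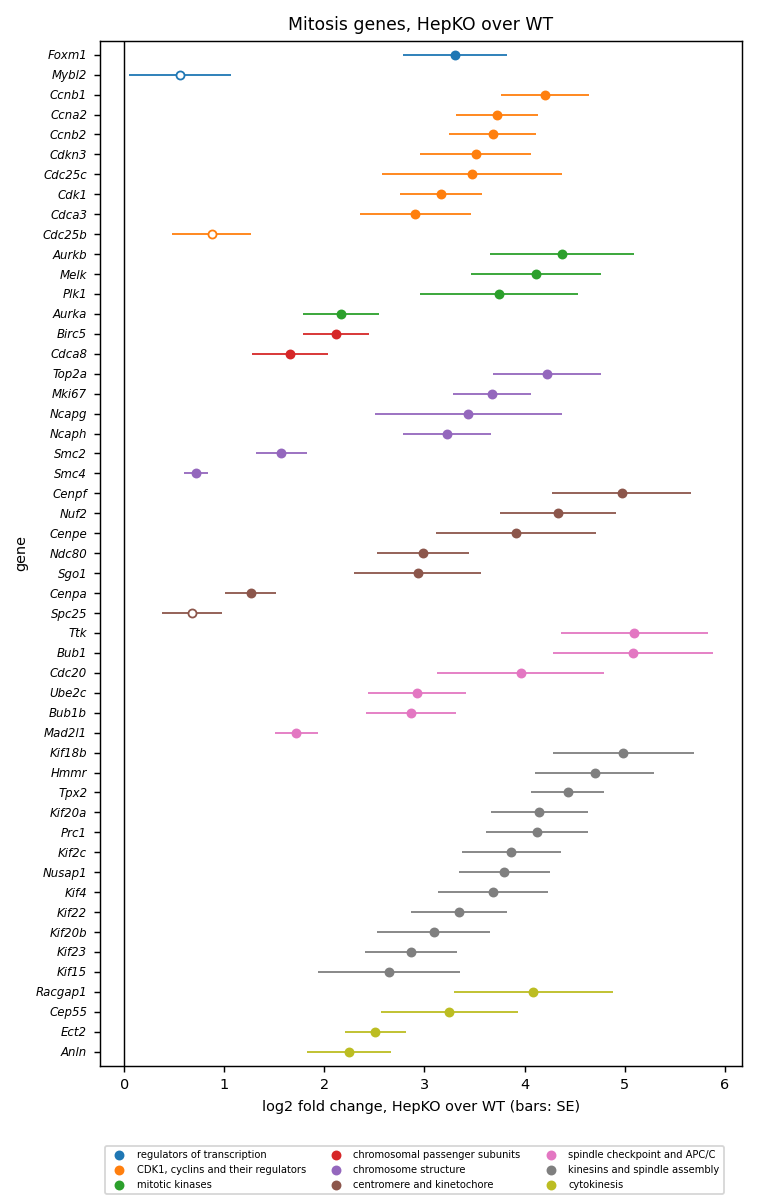
Log2 fold change of HepKO over WT (x axis, points with SE bars) for the 51 tested mitosis genes (y axis), coloured by role; filled points passed an FDR under 0.05. The open points of Mybl2, Cdc25b and Spc25 lie between 0.56 and 0.88, and the filled points run from 0.72 for Smc4 to 5.10 for Ttk.

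Levels between genes were compared per kilobase of merged exon length. In HepKO the highest mean levels were those of Smc4 (7.81 ± 1.17 CPM per kb, SD, n = 3), Ccnb2 (4.28 ± 2.21), Spc25 (4.27 ± 2.05) and Cdc20 (3.93 ± 2.27), and the lowest were those of Cdc25c (0.234 ± 0.132), Kif15 (0.201 ± 0.0554) and Mybl2 (0.140 ± 0.0632). The spread of Ccnb2, Spc25 and Cdc20 was larger than the gaps between them. In WT the order was led by Smc4 (4.76 ± 0.135 CPM per kb), Spc25 (2.68 ± 0.211), Smc2 (0.888 ± 0.239) and Cenpa (0.627 ± 0.157). Ccnb2 and Cdc20 held ranks 9 and 13 of 51 in WT. Smc4, Spc25, Smc2, Cenpa and Mad2l1, which held ranks 1 to 5 in WT, had log2 fold changes between 0.68 and 1.72. These genes and exon lengths were ranked after their values were seen.

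The HepKO libraries were not alike. HepKO replicate 1 was the highest of its group for 49 of 51 tested members, whereas it was highest for 36.8% of all tested genes. The median ratio of its CPM to that of HepKO replicate 2 was 2.08 over the members, and to that of replicate 3 it was 1.95. Replicates 2 and 3 differed little, with a median ratio of 1.01. The members' CPM summed to 527, 283 and 276 in HepKO replicates 1 to 3, and to 64.5, 78.2 and 75.3 in WT replicates 1 to 3. HepKO replicate 1 also had the deepest library of the 6. The exceptions were Mybl2 and Sgo1, which were highest in HepKO replicate 2.

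Among WT libraries, replicate 1 was the lowest for 32 of 51 tested members and had 0 counts for 9 of them, where replicate 2 had 0 counts for 1 and replicate 3 for 0. Over all tested genes replicate 1 was the lowest of its group for 36.9%. Low counts were not particular to the members: WT replicate 1 had counts for 19540 genes of the whole table, against 22546 and 22553 in WT replicates 2 and 3. Leaving out WT replicate 1 left 47 members called higher (15.4% of all genes).

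**Figure D4:**
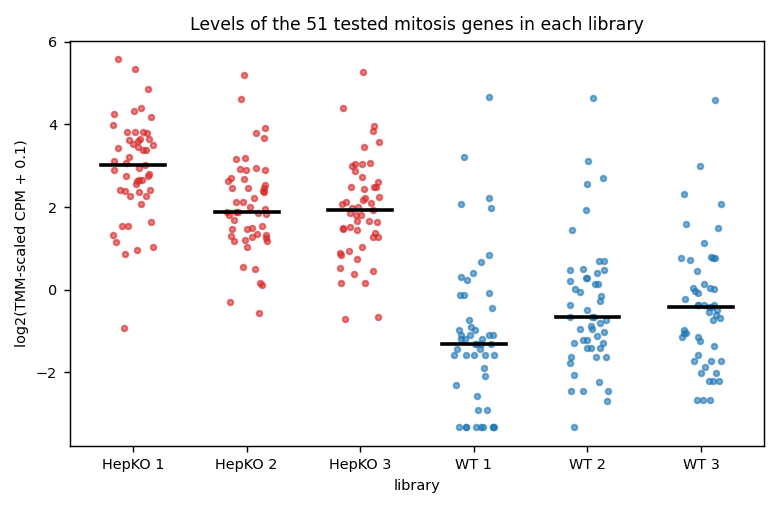
Level of the 51 tested mitosis genes in each library (points; y axis, log2 of TMM-scaled CPM plus 0.1; bars, medians), with HepKO in red and WT in blue. The median of HepKO 1 stands above those of HepKO 2 and HepKO 3, and WT 1 has a row of 9 genes at 0 counts.

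Reads from an overlapping gene could have entered some of these counts, or reads of shared exons could have been left out. No source used here says whether strand was used in counting. Exons of 14 members overlap a gene on the opposite strand, and 10 of these partners had at least 10 counts in a library. In WT replicate 1 Cdc20 had 0 counts with 907 for its partner Elovl1, and Ncapg had 0 with 684 for Lcorl. Elovl1 was itself called higher (log2 fold change 0.56, FDR 0.00402), and Lcorl was not called (-0.34, FDR 0.114). The partners of Ccna2 (Exosc9), Kif20a (Cdc23), Kif4 (Pdzd11) and Prc1 (Rccd1) had log2 fold changes of 0.36, -0.15, -0.0002 and -0.04 and were not called. Those of Cdc25b (Spef1), Cdc25c (Gm3550) and Cdca8 (9930104L06Rik) had -0.08, 0.84 and 0.19 and were not called either. Gm3550 had 41, 11 and 36 counts in HepKO replicates 1 to 3 and 13, 8 and 13 in WT. Cdc25c had 108, 26 and 40 counts in HepKO and 3, 0 and 7 in WT. The partner of Nusap1, Oip5, rose along with it (log2 fold change 3.33, FDR 0.00161), and these genes could not be told apart where they overlap.

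The wider machinery of division was followed in 122 further genes in 8 lists, of which 121 were tested. Of these, 50 rose and 15 fell, with a median log2 fold change of 0.43. These counts, and those of each list below, stand beside 19.5% of all tested genes called higher and 18.7% lower. Of the 50 that rose, 24 were under the filter's cutoff in a WT library and so passed it through their HepKO level, and their count is not support of its own. Among other spindle, centrosome and cytokinesis genes 13 of 18 rose and 0 fell (median 3.30), but 12 of the 13 passed the filter in that way, all but Tacc3. Psrc1, a microtubule-binding spindle gene, had 4.39, 4.37 and 4.01 CPM in HepKO, against 0, 0.0836 and 0.117 CPM in WT (log2 fold change 5.87 ± 0.56, FDR 3.17e-04, or 6.48 without WT replicate 3). The spindle gene Spag5 also rose (3.72 ± 0.49, FDR 0.00103). Among other kinetochore and checkpoint genes 15 of 29 rose and 3 fell (median 1.20), 8 of the 15 through their HepKO level. Incenp, the scaffold of the passenger complex, rose (log2 fold change 1.79 ± 0.25, FDR 0.00138). Leaving out 1 library ended 10 of the 50 higher calls in at least 1 of the 6 fits. Among spindle and kinetochore genes, Cenpl and Cenpp (5 fits each, FDR 0.0523 to 0.139), Pimreg (5, to 0.113), Cenpu (4, to 0.129), Depdc1a (4, to 0.117) and Fam83d (2, without HepKO replicate 1 or WT replicate 2) lost their call.

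Of 20 pre-replication and S-phase genes 10 rose and 0 fell (median 1.08). The smallest p-values belonged to Uhrf1, which keeps DNA methylation through replication (2.79 ± 0.34, FDR 7.97e-04), and the helicase subunit Mcm4 (1.29 ± 0.17, FDR 9.78e-04), while Gins2 had the largest log2 fold change (3.36 ± 0.77, FDR 0.0109). Of 10 entry brakes and CDK1 partners 5 rose and 2 fell. Arpp19, which blocks the phosphatase that opposes CDK1, rose (0.93 ± 0.13, FDR 0.00119). Of the other 4 condensin subunits 2 rose and 1 fell, with Ncapg2 of condensin II higher (1.88 ± 0.34, FDR 0.00402). The other riser, Ncapd2 of condensin I (0.97, FDR 0.0305), lost its call with limma-voom (FDR 0.0595) and in each fit that left out 1 library except that without HepKO replicate 3 (FDR 0.0555 to 0.0770). Its value was 0.58 without HepKO replicate 1. In the entry list Cdc25a lost its call without HepKO replicate 3 (FDR 0.0554).

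The lists of APC/C, cohesin and MuvB genes, many of which also serve cells outside mitosis, showed no such rise as a whole under TMM. With library totals more of them were called higher, as given below. Of 15 APC/C genes 1 rose and 1 fell (median -0.06). Anapc15 was higher (0.48 ± 0.15, FDR 0.0400) and Anapc1 lower (-0.27 ± 0.08, FDR 0.0351), and the call of Anapc1 ended in each fit that left out 1 library (FDR 0.0550 to 0.152), as did that of Anapc15 in 5 of those 6 fits, all but the fit without HepKO replicate 2. In the cohesin list 3 of 14 rose and 4 fell. The 3 that rose, each kept through its HepKO level, were Sgo2a (4.27 ± 0.45, FDR 4.65e-04) and Cdca5 (3.92 ± 0.53, FDR 0.00112), which guard cohesin, and the separase Espl1 (3.32 ± 0.76, FDR 0.0109, or 3.96 with limma-voom). The 4 that fell were ring or accessory subunits, Stag1 (-0.67), Smc1a (-0.36), Pds5b (-0.41) and Stag2 (-0.35). Pds5b (FDR 0.0529 to 0.0848) and Stag2 (FDR 0.0599 to 0.143) lost their call in each fit that left out 1 library except the fit without HepKO replicate 3, and Smc1a lost it without HepKO replicate 3, WT replicate 2 or WT replicate 3 (FDR 0.0549 to 0.0764). In the MuvB and DREAM list 4 of 11 fell and 1 rose. Lin52, a MuvB subunit, had 6.16, 6.31 and 6.07 CPM in HepKO, against 13.1, 11.2 and 11.2 CPM in WT (log2 fold change -0.93 ± 0.14, FDR 0.00166). Rbl2, the pocket protein p130 of resting cells, was lower (-0.61 ± 0.11, FDR 0.00334). Rbl1, the related p107 of cycling cells, was higher (1.54 ± 0.43, FDR 0.0248), with its call lost without HepKO replicate 1 (FDR 0.0645), HepKO replicate 2 (FDR 0.0592) or WT replicate 3 (FDR 0.0822).

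The genes called lower changed with the scaling. With library totals 91 of these genes were called higher and 1 lower, and the 1 was Lin52 (log2 fold change -0.42, FDR 0.0348). Over all tested genes 46.4% were then called higher and 5.84% lower. Ccnf (-0.90 under TMM and -0.40 with library totals), Wee1 (-0.76 and -0.25), Hjurp (-0.70 and -0.18), Stag1 (-0.67 and -0.16), Rbl2 (-0.61 and -0.10) and Tfdp2 lost their call. Mis12, Zw10 and Ncapd3, called lower under TMM (-0.45, -0.43 and -0.43), turned to 0.06, 0.08 and 0.08 with no call, and Smc1a, Stag2, Pds5b and Lin54 changed sign as well. Anapc1 turned and was called higher (0.24, FDR 0.0496). Under TMM, leaving out 1 library ended the call of Zw10 (all but WT replicate 1), Lin54 (all but HepKO replicate 1, FDR 0.0537 to 0.105), Ncapd3 (HepKO replicates 1 and 3, WT replicates 2 and 3), Wee1 (HepKO replicates 2 and 3, WT replicates 2 and 3) and Mis12 (HepKO replicate 3, WT replicate 1). The groups overlapped for Wee1. The medians of the APC/C, cohesin and MuvB lists, below 0 under TMM, became 0.45, 0.41 and 0.39, each under the median of 0.52 over all tested genes. In these 3 lists 11 of 15, 9 of 14 and 6 of 11 genes were called higher with library totals.

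**Figure D5:**
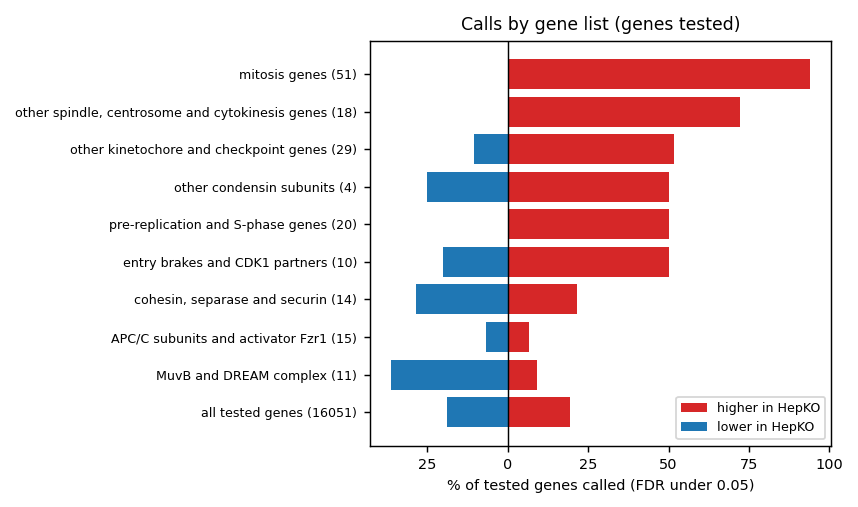
Share of tested genes (x axis, %) called higher (red, to the right of 0) or lower (blue, to the left) in HepKO under TMM, for the mitosis genes, 8 lists of other cell cycle genes and all tested genes (y axis, number tested in brackets). Of 51 mitosis genes 48 were higher and 0 lower, and of 11 MuvB and DREAM genes 1 was higher and 4 were lower. Of all tested genes 19.5% were higher and 18.7% lower.

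The cells that carried these mRNAs were not identified, and markers of liver cell types differed between the groups to unequal extents. Their counts under TMM stand beside 19.5% of all tested genes called higher and 18.7% lower, and those with library totals beside 46.4% and 5.84%. The liver label was borne out by hepatocyte markers, whose 8 genes summed to 38991 to 46490 CPM in HepKO and 90563 to 112439 CPM in WT; all 8 fell under TMM and 5 with library totals. Of 10 Kupffer cell and macrophage markers 9 rose, and their summed level was 932, 524 and 835 CPM in HepKO replicates 1 to 3, against 192 to 379 CPM in WT. Of 9 lymphocyte markers 2 rose, with sums of 12.1, 7.24 and 10.3 CPM in HepKO, against 4.16 to 5.60 CPM in WT. Of 9 stellate cell and fibroblast markers 4 rose (565 to 676 CPM in HepKO, against 228 to 333 CPM in WT). Of 6 cholangiocyte markers 4 rose, with sums of 148, 561 and 220 CPM in HepKO, against 44.0 to 61.9 CPM in WT. Of 5 neutrophil markers 2 were tested and rose, and Ly6g and Camp were near 0. Of 6 endothelial markers 1 rose and 0 fell (147 to 187 CPM in HepKO and 128 to 160 CPM in WT). Of 5 tested erythroid markers 0 rose and 4 fell under TMM, and 2 with library totals (37.1 to 62.4 CPM in HepKO and 120 to 191 CPM in WT). With library totals 10 of 10 macrophage, 7 of 9 stellate cell and fibroblast and 4 of 6 endothelial markers rose. So did 3 of 9 lymphocyte, 4 of 6 cholangiocyte and the 2 tested neutrophil markers. HepKO replicate 1, where the mitosis genes were highest, had the highest macrophage, lymphocyte and endothelial sums of its group. It had the lowest hepatocyte, cholangiocyte and erythroid sums, and its stellate cell and neutrophil sums lay between those of the other HepKO libraries. HepKO replicates 2 and 3 had macrophage sums of 524 and 835 CPM, where the mitosis genes summed to 283 and 276 CPM. The part of these cells in the rise of the mitosis genes was not tested.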

How the data were processed

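RNA of 6 mouse liver samples was sequenced. Per the submitters' processing notes, which give neither role nor order, the tools were bcl2fastq, STAR 2.7.11a, featureCounts of Subread 2.0.0 and edgeR 3.40.2, with build mm10. The deposited table holds raw read counts per gene, and 55480 of its 56350 IDs matched GENCODE M21. Neither its annotation release nor whether strand was used is given in the sources used here. From these counts, genes were filtered with filterByExpr, scaled by TMM and fitted with the quasi-likelihood test of edgeR 4.0.16 (R 4.3.3), HepKO against WT, with Benjamini-Hochberg adjustment over 16051 genes. CPM uses the TMM-scaled totals, except in the filters, which use library totals without TMM. Alternatives were other scaling, DESeq2 1.42.0, limma-voom (limma 3.58.1), other filters, an FDR under 0.01, each library left out, and a replicate block. Replicates of a group differed beyond sampling noise (26.6 to 131 chi-square units per degree of freedom). The members and lists were chosen with earlier results of these data known. Values per library were given by rule for Mki67, Top2a, Cdk1, Ccnb1, Foxm1, Anln and the members of smallest and largest p in each role; of other lists, the 2 genes of smallest p and those called against their list's majority were named. Other genes were named after their values were seen.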

Additional observations from a re-analysis of the deposited data

How the results depend on the processing

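The count of mitosis genes called higher lay between 44 and 50 in all alternatives run, with 0 called lower in each. It was 48 with DESeq2 and with relative log expression factors, 46 with limma-voom, 44 at an FDR under 0.01 and 45 of 47 with a filter of 1 CPM; leaving out 1 library gave 45 to 48, and medians of 2.91 to 3.68. Over all genes, library totals gave 7442 higher and 937 lower (46.4% and 5.84%), and an FDR under 0.01 gave 1751 and 1693 (10.9% and 10.5%). Among the other mitosis and S-phase genes, library totals gave 91 higher and 1 lower, and an FDR under 0.01 gave 31 and 6. Leaving out 1 library gave 7 to 11 lower, beside 12.2% to 17.5% of all genes. Replicate numbers gave no sign of pairing: deviations of same-numbered samples correlated at -0.139, -0.109 and 0.0300. Those of differently numbered samples correlated at -0.157 to 0.218. With 3 samples per group these values cannot exclude a pairing. With the replicate block, 46 mitosis genes were higher, 8 of the other mitosis genes were lower, and 2569 genes were higher and 2502 lower over all. Ncapg (FDR 0.0820) and Kif15 (FDR 0.0569) lost their call under the block. The cause of these shifts was not tested. Low WT counts limit the precision of the steepest fold changes.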
